A study of Arabidopsis thaliana with 4 samples.

Results

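Abscisic acid, the plant hormone of dormancy and drought, is held at its level by enzymes that make it and enzymes that break it down. The genes described here are 10 of the 32833 in the count table, chosen by identifier: NCED2 (AT4G18350), NCED3 (AT3G14440), NCED5 (AT1G30100), NCED6 (AT3G24220), NCED9 (AT1G78390) and ABA2 (AT1G52340) on the synthesis side, and CYP707A1 (AT4G19230), CYP707A2 (AT2G29090), CYP707A3 (AT5G45340) and CYP707A4 (AT3G19270) on the breakdown side. They were measured in Col-0 seedlings, aged 7 days and grown under 16 h of light and 8 h of dark, from which polyadenylated RNA was sequenced with a stranded kit. The groups were seedlings whose genotype is labelled cml39 -/-, mutant in the calmodulin-like calcium sensor CML39 (2 libraries, cml39 1 and cml39 2), and wild type (2 libraries, wt 1 and wt 2), and neither received a treatment that the labels name. Which cml39 allele was used, and how many plants went into a library, is not given in the sources used here. Nothing in the labels says that the 2 libraries of a group came from separate growths, so p-values measure the spread between these libraries, which may be technical.

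Libraries held between 19331639 and 24101882 counts, and 19834 genes were expressed enough to be tested. The label was checked on CML39 itself, which had 45 and 21 counts in the libraries labelled cml39, against 0 and 0 in the wt libraries. That goes against the labels if the mutation removes the transcript, and whether the labels were exchanged was not tested. Groups are named by their labels throughout, and every rise, fall and ratio between groups would be turned round if the labels were exchanged. The library cml39 2 also stood apart: 11 seed storage, oleosin and late embryogenesis genes summed to 186 CPM (read counts scaled to a common library size) in cml39 2 and 3.12 CPM in cml39 1, against 2.18 CPM in wt 1 and 2.44 CPM in wt 2. All 11 had a count in cml39 2, while 5 were at 0 in cml39 1, 6 in wt 1 and 8 in wt 2.

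The hormone is built from carotenoids in the plastid. The NCED enzymes, epoxycarotenoid dioxygenases, cut an epoxycarotenoid to xanthoxin, a step long regarded as rate-limiting; ABA2, a short-chain dehydrogenase of the cytosol, turns xanthoxin into abscisic aldehyde, and the aldehyde oxidase AAO3 finishes the molecule. The CYP707A enzymes are cytochrome P450 monooxygenases that hydroxylate the 8′ carbon, after which the product closes to phaseic acid and loses most of its activity. In Arabidopsis NCED3 is known as the gene induced by drought, NCED6 and NCED9 as genes of the developing seed, CYP707A2 as the hydroxylase gene of imbibed seeds and CYP707A3 as that of vegetative tissue recovering from water loss.

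All 4 hydroxylase genes were higher in the libraries labelled cml39, by 2.5-fold to 6.95-fold, while ABA2 was 1.62-fold lower. NCED3, the only dioxygenase gene with enough reads to be tested, stood at 1.17 ± 0.51 CPM in the libraries labelled cml39 and 2.63 ± 0.68 CPM in the wt libraries (SD, n = 2 each) and did not pass the test. The other 4 dioxygenase genes held 0 counts in both libraries labelled cml39 and at most 8 in a wt library. Of the 10 genes 6 were tested, 4 rose and 1 fell, while among all tested genes 40.9% were called, 19.3% as higher and 21.6% as lower (edgeR's quasi-likelihood test, Benjamini-Hochberg adjusted p below 0.05). Without wt 1 the number of genes called was 4177, against 8107 with all libraries. The groups did not overlap in CPM for any of the 6, with cml39 above for 4 and below for 2. Such separation was common, since both libraries labelled cml39 lay above both wt libraries for 36.0% of tested genes and below both for 38.0%. The median log2 change was 2.20 over the 4 hydroxylase genes and -0.94 over the 2 tested synthesis genes, beside -0.01 over all tested genes.

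**Figure D1:**
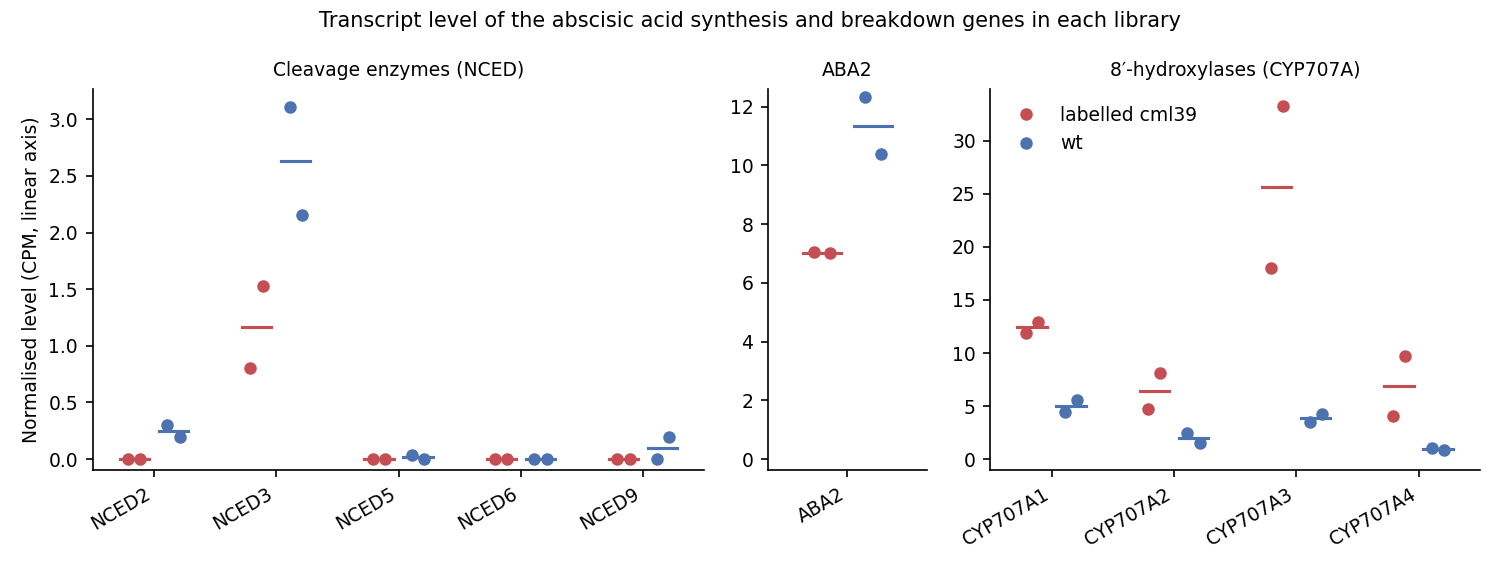
Normalised level in CPM (vertical, linear axes with a different range in each panel) of the 10 genes in each library; points are single libraries, lines the mean of the 2 libraries of a group. The hydroxylase genes sit higher in the libraries labelled cml39, from 4.02 to 33.3 CPM against 0.861 to 5.55 CPM in wt, while ABA2 and NCED3 sit lower.

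CYP707A3 reached the highest level of the family in the libraries labelled cml39. It had 359 and 608 counts, or 18.1 and 33.3 CPM, in cml39 1 and cml39 2, against 93 and 88 counts, or 3.49 and 4.21 CPM, in wt 1 and wt 2. Both libraries labelled cml39 were above both wt libraries, and they differed from each other by 1.84 times. The log2 change was 2.74 ± 0.30 (SE; adjusted p = 0.00048, edgeR), a 6.68-fold rise.

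CYP707A4, a hydroxylase of the same family, was the least abundant of the 4 in wt. Its counts were 80 and 178 in cml39 1 and cml39 2 (4.02 and 9.74 CPM), against 29 and 18 in wt 1 and wt 2 (1.09 and 0.861 CPM). The groups were again apart, with cml39 2 at 2.42 times cml39 1. The log2 change was 2.80 ± 0.47 (SE; adjusted p = 0.00287, edgeR), or 6.95-fold, and without cml39 2 it was 2.03.

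CYP707A1 had 236 and 237 counts in cml39 1 and cml39 2 (11.9 and 13.0 CPM), against 118 and 116 in wt 1 and wt 2 (4.43 and 5.55 CPM). The libraries of a group lay close together and the groups well apart, with 12.4 ± 0.77 CPM in the libraries labelled cml39 and 4.99 ± 0.79 CPM in wt (SD, n = 2 each). The log2 change was 1.32 ± 0.20 (SE; adjusted p = 0.00172, edgeR). CYP707A2 had 93 and 148 counts in cml39 1 and cml39 2 (4.68 and 8.10 CPM), against 66 and 32 in wt 1 and wt 2 (2.48 and 1.53 CPM). Both of its groups were uneven, with cml39 2 at 1.73 times cml39 1 and wt 1 at 1.62 times wt 2. The log2 change was 1.65 ± 0.36 (SE; adjusted p = 0.00929, edgeR), and without wt 2 the call was lost (adjusted p = 0.0501).

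The hydroxylase genes that differed most between the libraries labelled cml39 (CYP707A4, CYP707A3 and CYP707A2) were higher in cml39 2, the library with the seed storage transcripts. This was not particular to hydroxylase genes, since NCED3 in cml39 2 was 1.90 times its level in cml39 1. CYP707A1 (1.09 times) and ABA2 (0.994 times) differed little. With cml39 2 left out, the log2 changes were 1.26 for CYP707A1, 1.20 for CYP707A2, 2.24 for CYP707A3 and 2.03 for CYP707A4 (highest adjusted p = 0.0181, edgeR). That fit has 1 library labelled cml39, which is assumed to vary like the 2 wt libraries; a lone library is treated in the same way in the other fits that leave one out. The part of the seed transcripts in these levels was not tested.

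**Figure D2:**
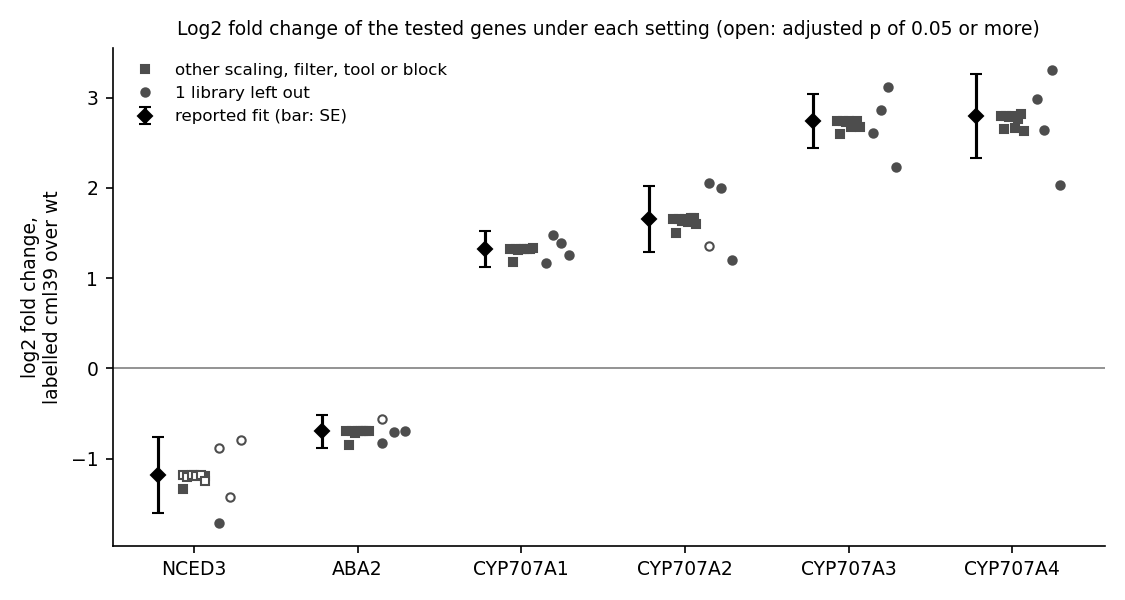
Log2 fold change, labelled cml39 over wt (vertical), of the 6 tested genes in the reported fit (diamonds, bars SE), under other scalings, filters, tools or a replicate block (squares), and with 1 library left out (circles); open symbols did not pass. No value crossed 0, and leaving out a library moved the estimates further than the other settings did for CYP707A3 (2.24 to 3.12) and CYP707A4 (2.03 to 3.30).

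Whether reads of the hydroxylase genes could be told apart was judged from the reference sequence and not from read alignments. Windows with mismatches or across exon junctions were not searched. The coding sequences of CYP707A1 and CYP707A3 were 83.0% identical and the other 5 pairs 64.2% to 66.1%, but of all windows of 50 bases in the exons of each of the 10 genes, 0 occurred a second time in the genome. The family also differs from the NCED genes in build: the longest annotated transcripts of CYP707A1 to CYP707A4 have 7, 9, 5 and 9 exons, whereas each of the 5 NCED genes has 1 exon and their coding sequences are 62.6% to 73.0% identical.

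Because the hydroxylase genes rose together, the 250 bases before the annotated start of each are shown 5′ to 3′ on the gene's strand, from RefSeq's TAIR10.1, with capitals marking exact matches, on either strand, to ACGTG (the core of the abscisic acid response element), CACGTG (the G-box, which contains ACGTG on both strands), CCGAC (the core of the drought response element), TTGAC (the core of the W-box, bound by WRKY factors) or AAAATATCT (the evening element). They lie at chr4:10521009-10521258 (plus strand) for CYP707A1, chr5:18371022-18371271 (minus) for CYP707A3, chr3:6676522-6676771 (minus) for CYP707A4 and chr2:12499724-12499973 (minus) for CYP707A2.
CYP707A1: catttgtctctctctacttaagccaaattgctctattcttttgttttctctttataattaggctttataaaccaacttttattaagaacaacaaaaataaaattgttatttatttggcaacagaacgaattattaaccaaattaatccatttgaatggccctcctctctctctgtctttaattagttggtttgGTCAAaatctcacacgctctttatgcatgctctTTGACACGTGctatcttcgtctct
CYP707A3: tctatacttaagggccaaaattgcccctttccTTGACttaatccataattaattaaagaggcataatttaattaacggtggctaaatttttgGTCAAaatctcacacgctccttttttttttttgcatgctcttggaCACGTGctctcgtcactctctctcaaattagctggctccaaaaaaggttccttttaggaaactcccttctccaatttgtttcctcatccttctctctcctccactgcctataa
CYP707A4: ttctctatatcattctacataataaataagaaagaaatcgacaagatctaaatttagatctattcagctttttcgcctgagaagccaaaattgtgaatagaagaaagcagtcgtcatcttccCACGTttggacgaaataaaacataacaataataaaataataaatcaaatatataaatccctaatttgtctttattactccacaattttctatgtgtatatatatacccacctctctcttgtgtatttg
CYP707A2: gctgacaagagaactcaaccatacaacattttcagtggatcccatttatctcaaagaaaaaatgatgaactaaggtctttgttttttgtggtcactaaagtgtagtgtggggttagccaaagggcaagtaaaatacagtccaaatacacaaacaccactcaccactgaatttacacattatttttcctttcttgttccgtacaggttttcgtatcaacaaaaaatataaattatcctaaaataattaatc
CYP707A1 and CYP707A3, the closest pair by coding sequence, share the run tttggtcaaaatctcacacgctc of 23 bases, which begins 61 bases before the start of CYP707A1 and 162 bases before that of CYP707A3. No other pair among the 10 genes shares an exact run of 12 bases or more in this window. Both have a G-box downstream of that run, at -20 to -15 in CYP707A1 and at -113 to -108 in CYP707A3. CYP707A4 holds ACGTG outside a G-box, and CYP707A2 holds none of the 5 motifs in these letters.

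Over the 10 genes, ACGTG was found before 4 (NCED9, CYP707A1, CYP707A3 and CYP707A4) and before 22.9% of 27443 protein-coding genes with a full window. CACGTG was before 3 of the 10 (NCED9, CYP707A1 and CYP707A3) and 6.49% of all, TTGAC before 6 of the 10 and 44.9% of all, CCGAC before 1 of the 10 (ABA2) and 12% of all, and AAAATATCT before 0 of the 10 and 2.36% of all. A match of letters is a description of the window and not a binding site.

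**Figure D3:**
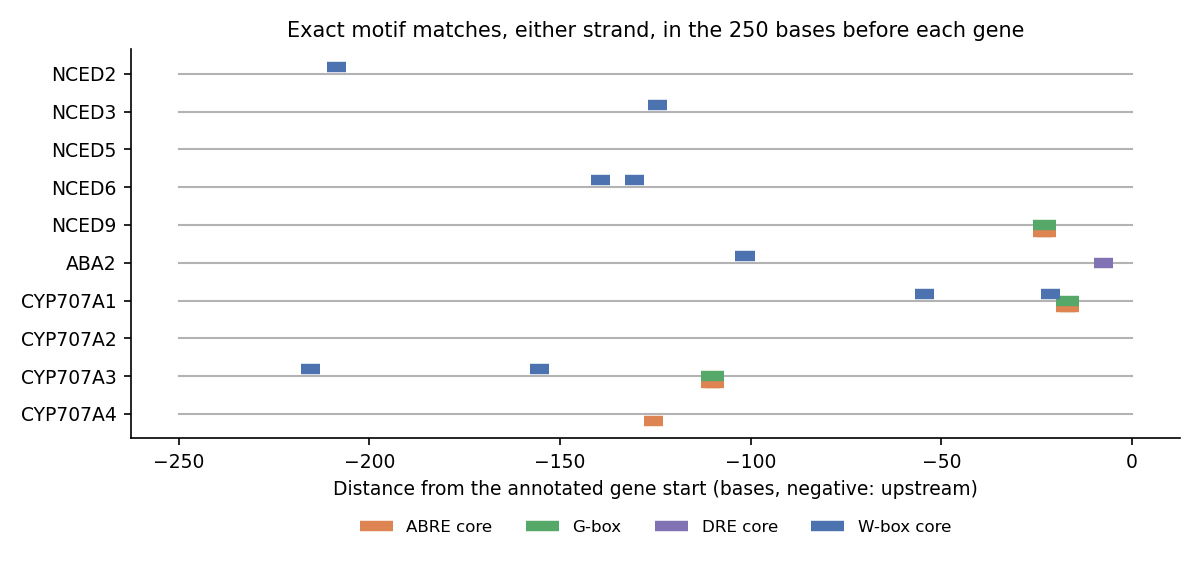
Exact motif matches (coloured blocks) on either strand in the 250 bases before each of the 10 genes, by distance in bases from the annotated gene start (horizontal). G-boxes overlap ABRE cores in NCED9, CYP707A1 and CYP707A3, and NCED5 and CYP707A2 have no match.

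On the synthesis side NCED3 had 16 and 28 counts in cml39 1 and cml39 2 (0.805 and 1.53 CPM), against 83 and 45 in wt 1 and wt 2 (3.11 and 2.15 CPM). Each group spread widely, yet both libraries labelled cml39 were below both wt libraries. The log2 difference was -1.18 ± 0.42 (SE), with an adjusted p of 0.0569 (edgeR) that narrowly missed the threshold. Upper quartile scaling (adjusted p = 0.0398, edgeR) and testing every gene with a count (adjusted p = 0.033, edgeR) each took it below the threshold. DESeq2 (adjusted p = 0.130) and a replicate block (adjusted p = 0.0991, edgeR) did not. Nor did DESeq2 size factors, a filter of 1 CPM in 2 libraries, robust dispersion or limma-voom. Whether NCED3 is called thus rests on the processing. The log2 change was -1.71 without cml39 2, -0.79 without cml39 1, -0.88 without wt 1 and -1.43 without wt 2. In each of these fits the spread comes from the group that keeps 2 libraries.

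ABA2 had 140 and 128 counts in cml39 1 and cml39 2 (7.04 and 7.00 CPM), against 329 and 217 in wt 1 and wt 2 (12.3 and 10.4 CPM). The libraries labelled cml39 were nearly identical and both below wt. The log2 change was -0.70 ± 0.18 (SE; adjusted p = 0.0185, edgeR), and without wt 1 it was -0.56 and did not pass (adjusted p = 0.176). ABA2 lies at chr1:19489794-19491650 on the minus strand in TAIR10.1 and has 2 exons. AT1G52330, a protein-coding gene on the opposite strand, overlaps it by 121 bases and had 12 and 14 counts in cml39 1 and cml39 2, against 101 and 73 in wt 1 and wt 2. The strand setting of the counting is not given in the sources used here, so reads of these partners may not have been told apart. A long non-coding RNA gene that also overlaps ABA2 had 0 counts in each library, and no other gene of the 10 overlaps an annotated gene.

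The remaining dioxygenase genes were close to or below detection. NCED2 had 0 and 0 counts in the libraries labelled cml39 and 8 and 4 in wt 1 and wt 2 (0.300 and 0.191 CPM). With the cml39 group set at a floor of 3 counts it was 3.21-fold lower. That value takes the wt counts as exact, so it is not a lower bound. It was 1.54-fold without cml39 1 and 1.67-fold without cml39 2, where the floor stands on 1 library. NCED9 had 0 and 0 counts in the libraries labelled cml39 and 0 and 4 in wt 1 and wt 2, and NCED5 had 1 count in all, in wt 1. NCED6 had 0 counts in all 4 libraries, which allows up to 0.151 and 0.164 CPM in cml39 1 and cml39 2 and up to 0.113 and 0.143 CPM in wt 1 and wt 2. In a fit without a filter on low counts, NCED2, NCED5 and NCED9 did not pass (adjusted p = 0.0776, 0.651 and 0.368, edgeR).

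Levels were then set side by side per kilobase of exon (CPM per kb). In the libraries labelled cml39 CYP707A3 came first at 12.6 CPM per kb (8.84 and 16.3), ahead of ABA2 (5.95 and 5.92) and CYP707A1 (5.61 and 6.13), whose libraries overlapped. CYP707A4 (2.30 and 5.57) and CYP707A2 (2.01 and 3.48) overlapped each other, and NCED3 stood last of the tested genes at 0.428 CPM per kb. In wt ABA2 came first by a wide margin at 9.59 CPM per kb, followed by CYP707A1 (2.09 and 2.62) and CYP707A3 (1.71 and 2.06), which nearly met. NCED3 (0.964 CPM per kb on average) and CYP707A2 (1.06 and 0.657) overlapped in wt, and CYP707A4 (0.622 and 0.492) was below both. CYP707A3 thus took 47.1% and 51.8% of the summed hydroxylase level per kb in cml39 1 and cml39 2, against 31.1% and 35.3% in wt 1 and wt 2, where CYP707A1 was the larger with 38.2% and 45.0%.

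Summed per kb, the 4 hydroxylase genes reached 18.8 and 31.5 CPM per kb in cml39 1 and cml39 2, against 5.48 and 5.83 in wt 1 and wt 2. The 5 NCED genes together reached 0.295 and 0.561 CPM per kb in cml39 1 and cml39 2, against 1.28 and 0.956 in wt 1 and wt 2. The hydroxylase sum was thus 63.7 and 56.1 times the NCED sum in cml39 1 and cml39 2, and 4.27 and 6.10 times in wt 1 and wt 2. In the libraries labelled cml39 the NCED sum was NCED3 alone, on 16 and 28 counts in cml39 1 and cml39 2. NCED3 did not pass the test, so the ratios there rest on few reads of a gene that was not called. These ratios are of transcripts and carry no test.

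Markers of tissues were counted between the same groups, against a background of 19.3% higher and 21.6% lower over all tested genes. Of 10 root markers 9 fell and 0 rose, and their summed level was 1082 and 1342 CPM in the libraries labelled cml39 against 4671 and 4131 CPM in wt. Most of that sum was PYK10, with 973 and 1210 CPM in the libraries labelled cml39 and 4293 and 3748.5 CPM in wt. The marker that did not pass, SCR, lay above wt, with 43.2 and 54.2 CPM in the libraries labelled cml39 against 42.5 and 41.8 CPM. Of 7 vascular markers 6 fell and 0 rose (157 and 156 CPM in the libraries labelled cml39, 371 and 311 CPM in wt). The falls were uneven, from 1.39-fold for SUC2 to 9.97-fold for XCP1. APL did not pass and lay above wt, with 13.8 and 13.9 CPM in the libraries labelled cml39 against 12.9 and 11.3 CPM. Of 7 guard cell markers 3 fell and 1 rose (88.9 and 90.1 CPM in the libraries labelled cml39, 112 and 128 CPM in wt), and of 8 markers of green tissue 3 rose and 0 fell (43838 and 43551 CPM in the libraries labelled cml39, 35905 and 35841 CPM in wt). No marker of these 4 lists was at 0 in any library. Among 5 flower markers PI rose (adjusted p = 2.58e-05, edgeR). It reached 167 ± 10.9 CPM in the libraries labelled cml39 against 7.08 ± 1.89 CPM in wt (SD, n = 2 each). Of the others 1 was tested and did not pass, and 3 had too few reads to be tested. Of these 3, AP1 was at 0 in every library. AP3 was at 0 in both libraries labelled cml39, and its 2 and 1 counts in wt 1 and wt 2 were below the floor of 3 counts. In bulk seedling RNA fewer cells of a type and less RNA per cell cannot be told apart. The part of these tissue shifts in the lower ABA2 and NCED3, genes known to be active in vascular tissue, or in the higher hydroxylase genes was not tested.

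**Figure D4:**
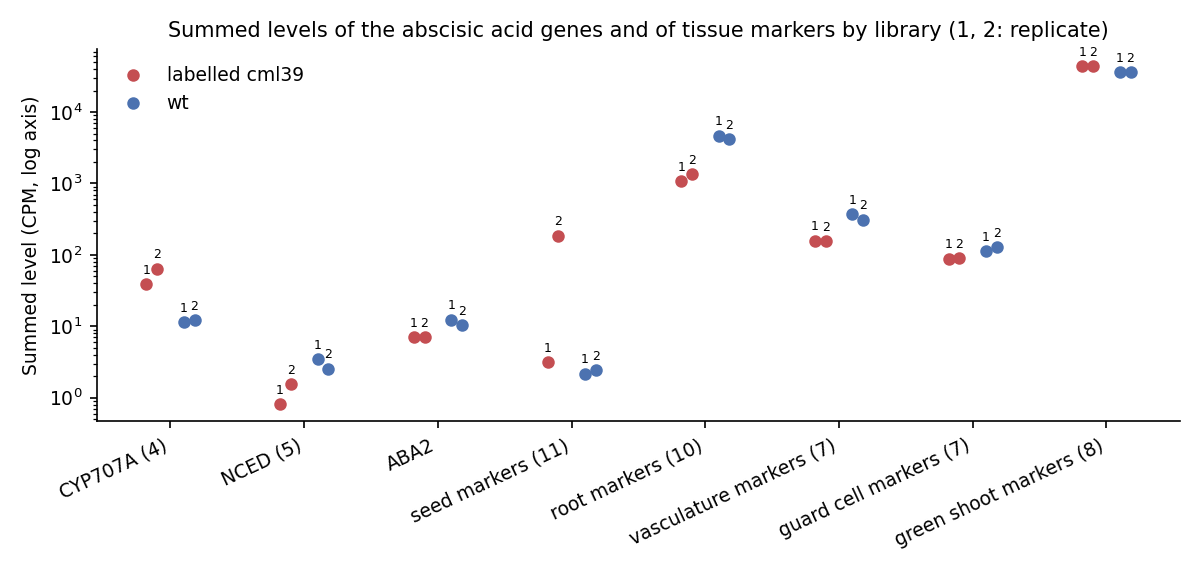
Summed CPM (vertical, log axis) of the 4 CYP707A genes, the 5 NCED genes, ABA2 and 5 lists of tissue markers in each library, numbered by replicate, with the number of genes of each list in brackets. Root markers (1082 and 1342 CPM, mostly PYK10) and vascular markers (157 and 156 CPM) are lower in the libraries labelled cml39, and the seed markers are high in cml39 2 only.

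Of 9 genes that feed the pathway or finish it, 5 rose, 0 fell and 4 did not pass, with a median log2 change of 0.55, beside 19.3% higher and 21.6% lower over all tested genes. ABA1, the zeaxanthin epoxidase that makes violaxanthin, had 569 and 690 CPM in cml39 1 and cml39 2, against 333 and 346 CPM in wt 1 and wt 2 (log2 change 0.89 ± 0.12, SE). NPQ1, the violaxanthin de-epoxidase that runs the reverse reaction in strong light, rose by 1.23 ± 0.10, and the carotene hydroxylase genes BCH1 (0.87 ± 0.11) and LUT5 (0.55 ± 0.11) rose as well. LUT5 did not pass without wt 1 (adjusted p = 0.0547, edgeR). AAO3, which oxidises abscisic aldehyde to the hormone, stood at 57.4 ± 0.71 CPM in the libraries labelled cml39 and 27.1 ± 1.27 CPM in wt (SD, n = 2 each), a log2 change of 1.09 ± 0.11 (SE; adjusted p = 0.000319, edgeR). ABA3, which activates the molybdenum cofactor of AAO3, had a log2 difference of 0.46 ± 0.18, and PSY, the first enzyme of the carotenoid pathway, of 0.18 ± 0.12; neither passed. AAO3 and ABA2, which act in neighbouring steps, thus changed in opposite directions. Among 4 other carotenoid cleavage genes CCD1, which makes small volatile compounds, rose by 0.82 ± 0.10, and CCD8 of strigolactone synthesis (0.97 ± 0.38) did not pass.

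Storage of the hormone as its glucose ester involves glucosyltransferases that make the ester and β-glucosidases that release it. Both β-glucosidase genes known for that release were lower. BGLU18, of the endoplasmic reticulum, had 15 and 9 counts in cml39 1 and cml39 2 (0.755 and 0.492 CPM), against 1231 and 807 in wt 1 and wt 2 (46.2 and 38.6 CPM). The log2 change was -6.06 ± 0.23 (SE; adjusted p = 2.58e-05, edgeR), a 66.9-fold fall and the largest fitted change among the 47 tested genes of the pathway lists. In the authors' deposited table BGLU18 stood at -1.47 ± 0.60 (SE) and did not pass (adjusted p = 0.0717, DESeq2). Sizes there may not be the same measure as in the edgeR fit. BGLU33, of the vacuole, had 93 and 110 counts in cml39 1 and cml39 2 (4.68 and 6.02 CPM), against 1146 and 631 in wt 1 and wt 2 (43.0 and 30.2 CPM), a log2 change of -2.78 ± 0.22 (SE; adjusted p = 0.000137, edgeR). In each the groups were far apart. The glucosyltransferase genes UGT71B6 (1.55 ± 0.38) and UGT71B7 (0.86 ± 0.14) rose. They are neighbouring paralogs, and whether they share reads was not tested. UGT71C5, another glucosyltransferase gene, had a log2 difference of -0.06 that did not pass (adjusted p = 0.831, edgeR). Of the 5 tested genes of conjugation and release 2 rose and 2 fell, beside 19.3% higher and 21.6% lower over all tested genes. UGT71B6 did not pass without wt 1 (adjusted p = 0.0940, edgeR).

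**Figure D5:**
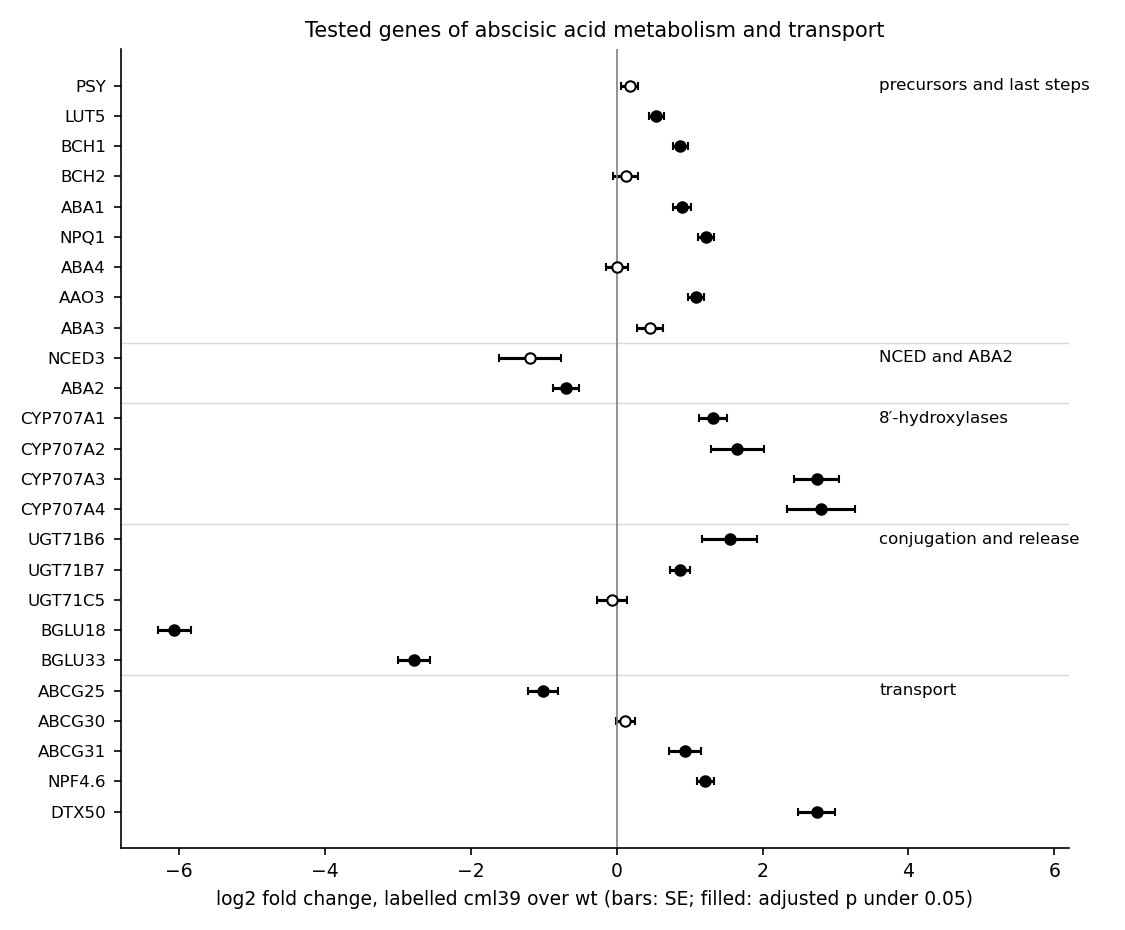
Log2 fold change with its SE, labelled cml39 over wt (horizontal), of the tested genes of precursor supply and last steps, of NCED3, ABA2 and the hydroxylases, and of conjugation and transport, in that order; filled points passed the test. The 4 hydroxylase genes lie between 1.32 and 2.80, and BGLU18 lies farthest from 0 at -6.06.

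Of 5 tested transporter genes 3 rose, 1 fell and 1 did not pass, beside 19.3% higher and 21.6% lower over all tested genes. DTX50, an exporter of abscisic acid, had 40.3 and 28.0 CPM in cml39 1 and cml39 2, against 4.09 and 6.22 CPM in wt 1 and wt 2 (log2 change 2.74 ± 0.25, SE). NPF4.6, an importer that also carries nitrate, rose by 1.22 ± 0.12, and ABCG31, known from export in seed endosperm, by 0.94 ± 0.22. ABCG25, the exporter of vascular cells, fell by 1.01 on the log2 scale, to 5.76 ± 0.82 CPM in the libraries labelled cml39 against 11.6 ± 1.79 CPM in wt (SD, n = 2 each), beside the lower vascular markers above. ABCG25 and ABCG31 did not pass without wt 1 (adjusted p = 0.0704 and 0.0984, edgeR).

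Of 21 genes known to respond to abscisic acid, 18 were tested, 3 rose, 3 fell and 12 did not pass, with a median log2 change of 0.02. Those shares were close to the 19.3% higher and 21.6% lower over all tested genes, so the count says nothing particular of the responsive genes. RD20, a caleosin (2.68 ± 0.46, SE), ABI1, a phosphatase that restrains abscisic acid signalling (0.93 ± 0.12), and RD29B (0.85 ± 0.23) rose, while RD22 (-1.54 ± 0.10), KIN2 (-1.21 ± 0.21) and the dehydrin gene ERD10 (-0.62 ± 0.16) fell. RD29B and ERD10 did not pass without wt 1 (adjusted p = 0.0988 and 0.107, edgeR). EM1 and EM6 of this list are also seed markers. The hormone itself was not measured.

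Of 7 tested factors reported to act on these synthesis and breakdown genes in Arabidopsis, 5 rose, 0 fell and 2 did not pass, beside 19.3% higher and 21.6% lower over all tested genes. ATAF1, a NAC factor that binds the NCED3 promoter, had 83.0 and 90.3 CPM in cml39 1 and cml39 2, against 26.0 and 32.5 CPM in wt 1 and wt 2 (log2 change 1.57 ± 0.14, SE). WRKY33, known to repress NCED3 and NCED5 on infection, had 119 and 202 CPM in cml39 1 and cml39 2, against 47.9 and 57.8 CPM in wt 1 and wt 2 (1.60 ± 0.24). MYB96, an activator of NCED2 and NCED6 in seeds, rose by 0.68 ± 0.17 and did not pass without wt 1 (adjusted p = 0.0952, edgeR). SOM (2.19 ± 0.26) and DOG1 (1.22 ± 0.23), regulators of germination and dormancy, rose too.

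The authors' deposited table of the same contrast covers 8 of the 10 genes, 6 of them with an adjusted p. It called 2, CYP707A3 (log2 change 2.23 ± 0.47, SE; adjusted p = 7.34e-05) and CYP707A4 (1.68 ± 0.60; adjusted p = 0.0343), at a background of 16.0% of genes called in the authors' deposited table. CYP707A1 stood there at 1.12 ± 0.45 (adjusted p = 0.0679), CYP707A2 at 0.85 ± 0.60 (adjusted p = 0.374), NCED3 at -0.60 ± 0.60 (adjusted p = 0.576) and ABA2 at -0.53 ± 0.50 (adjusted p = 0.537), all in the authors' deposited table. The 6 directions were those of the fit to the 4 libraries, and each of the 6 changes was smaller in size in the authors' deposited table. CML39 likewise stood at 2.78 there, against 8.20 in the edgeR fit. Whether the authors' fit shrank its log2 changes (reduced those that are poorly measured) is not given in the sources used here. Sizes in the 2 fits may therefore not be the same measure. Some pathway genes called in the fit to the 4 libraries were not called in the authors' deposited table. By adjusted p there, these were BGLU18 (0.0717), LUT5 (0.0777), SOM (0.0895), KIN2 (0.148), RD29B (0.320), ABA1 (0.374), ERD10 (0.466) and DOG1 (0.466). The mean normalised count given in the authors' deposited table was 1.58 times the mean of the 4 libraries for NCED3. It was 1.60 times for CYP707A2 and 0.999 times for CYP707A1. Over genes with a mean above 10 in the 4 libraries, the median of this ratio was 1.01. The authors' means thus do not match these 4 libraries for every gene as counted here. The reason is not given in the sources used here.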

How the data were processed

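Gene counts of the 4 libraries were deposited by the authors as whole, unnormalised numbers. Per the submitters' processing notes CASAVA 1.8, FastQC, STAR 2.5.2b and DESeq2 1.14.1 were used with TAIR10, and roles, annotation and strand setting are not given in the sources used here. The authors' deposited comparison table gives, per its header, a signal (the mean normalised count), a log2 fold change with SE, a score (the Wald statistic) and a raw and adjusted p-value, all from the authors' DESeq2 fit.

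Testing used edgeR 4.0.16 under R 4.3.3, with filterByExpr, scaling by the trimmed mean of M values (TMM), and the quasi-likelihood F test, two-sided, with Benjamini-Hochberg adjustment over 19834 genes and a threshold of 0.05. SE is the absolute log2 change over the square root of F. CPM uses TMM-scaled library sizes, and CPM per kb divides by the union of annotated exons. Floors are 3 counts and, without molecular identifiers, cover counting error only. Gene models, promoters and names come from RefSeq TAIR10.1, in which all 10 identifiers were found; coding sequences were aligned with Biopython 1.88, in place of the planned protein comparison.

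The 10 genes and all gene lists were chosen with earlier results of these data known. Named are the 10 genes, CML39, members of the short pathway lists, the 6 responsive genes with the lowest p, and up to 3 markers a list. The fit was first tested on simulated data. Other settings tried were leaving out each library, a block for the replicate number, robust dispersion, DESeq2 1.42.0 and limma-voom (limma 3.58.1), 2 other scalings (DESeq2 size factors, upper quartile) and 2 other filters (any count; 1 CPM in 2 libraries).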

Additional observations from a re-analysis of the deposited data

How the results depend on the processing

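In the 13 alternatives for each tested gene, CYP707A1, CYP707A2, CYP707A3, CYP707A4, ABA2 and NCED3 kept their direction. Log2 changes were 1.16 to 1.48 for CYP707A1, 2.24 to 3.12 for CYP707A3 and 2.03 to 3.30 for CYP707A4, which passed throughout. With 1 library left out the range was 1.20 to 2.06 for CYP707A2, -0.82 to -0.56 for ABA2 and -1.71 to -0.79 for NCED3. UGT71C5, which did not pass, ranged between -0.29 and 0.17 and changed sign without wt 2 or without cml39 2. Where 1 library of a group is left, it is assumed to vary like the other group. Among the settings with all 4 libraries, NCED3 passed with upper quartile scaling (-1.33), with every gene with a count (-1.18) and with crossed pairs (-1.19). It did not pass in the others, among them DESeq2 (adjusted p = 0.130). Upper quartile scaling shifted the median over genes by -0.15, with 2704 genes higher and 5403 lower, against 3822 and 4285; the 4 hydroxylase genes were higher and ABA2 and NCED3 lower under it. Leaving out a library gave 4177 (without wt 1) to 8364 calls against 8107, 4 to 6 calls among the 10 genes, 18 to 31 against 25 in the other lists, and summed levels of 1.73 to 2.48 (CYP707A, reported 2.15) and -1.93 to -0.997 (NCED, reported -1.39) on the log2 scale, with the cause not tested. The deviations of same-numbered libraries were only weakly related (r = -0.17 across genes), and the labels do not pair them. The replicate block gave 6744 calls, 5 among the 10 genes, and changed no call of theirs; crossed pairs, added after seeing the data, gave 8696 and 6. NCED2, NCED5, NCED6 and NCED9 are limited by depth.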
